A study of Mus musculus with 19 samples.

Results

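The genes described are Cd47, Sirpa, Thbs1, Thbs2 and Cd36, which encode the cell surface protein CD47, its receptor on phagocytes SIRP alpha, the secreted thrombospondins 1 and 2, and CD36, another surface receptor for thrombospondins. They were chosen by symbol as the genes of the CD47 axis, and are 5 of the 27998 genes counted in the 19 libraries. Single cell transcripts came from the Achilles tenotomy site of mice given a dorsal scald burn and a tenotomy, a combination after which bone forms outside the skeleton (heterotopic ossification). There were 4 libraries of day 0, 3 of day 3, and 4 each of day 7, day 21 and day 7 with p7N3, the CD47 activating peptide given intraperitoneally at 10 mg/kg daily from 3 days before to 3 days after injury.

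For all 19 libraries, the labels name C57 and LysmCre/Tgfb1fx/fx mice together and assign neither to a library. LysM-Cre deletes the floxed gene in myeloid cells, so that wild type libraries and libraries with that deletion cannot be told apart here. The day 0 labels list the burn, whereas the text of the study takes day 0 as the time before injury. No vehicle is named in the labels for the day 7 libraries without peptide, whereas the study compared the peptide with PBS. The labels do not say whether these day 7 libraries came from its PBS mice. No harvest day is given for p7N3 replicate 4. The study describes the cells of the peptide comparison as taken a week after injury, and this library was kept with the other p7N3 libraries. The labels do not say whether libraries came from separate or pooled animals, and p-values therefore measure the spread between libraries.

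CD47 is displayed by nearly all cells. When it binds SIRP alpha on a macrophage, phosphatases recruited to the tail of SIRP alpha dampen engulfment, which is known as a "do not eat me" signal. CD47 is also a receptor for thrombospondin 1, a matricellular glycoprotein released by platelets and wound cells that activates latent TGF-beta and, through CD47 and CD36, restrains nitric oxide signalling and angiogenesis in endothelium. CD36 additionally takes up fatty acids in capillary endothelium and oxidized lipids in macrophages, and thrombospondin 2 is a product of fibroblasts that limits vessel growth and shapes collagen fibrils.

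On the GRCm38 assembly (GENCODE vM21), Cd47 (ENSMUSG00000055447) lies on chromosome 16 from 49800533 to 49915010 on the plus strand. Sirpa (ENSMUSG00000037902) lies on chromosome 2 from 129592835 to 129632228 and Thbs1 (ENSMUSG00000040152) on the same chromosome from 118111876 to 118127133, both on the plus strand. Thbs2 (ENSMUSG00000023885) occupies chromosome 17 from 14665500 to 14694235 and Cd36 (ENSMUSG00000002944) chromosome 5 from 17781690 to 17888801, both on the minus strand. Thbs1 overlaps the antisense gene Gm29233, and the other 4 genes overlap no annotated gene. Promoter sequences of RefSeq on GRCm38.p6, running from 250 bases before to 50 bases after a start site, were matched for Cd47, Thbs2 and Cd36. No such sequence was available for Sirpa and Thbs1. The genes shown differed in where they were found, with Cd47 in every lineage, Thbs2 in matrix-producing cells and Cd36 in endothelial-like and monocyte/macrophage-like cells. No link of sequence to lineage was tested. The Cd47 window is the first of 2 overlapping windows listed. Capitals mark matches on either strand to the GC box GGGCGG, or to the TATA box TATAAA, which appears as its reverse complement where it lies on the other strand.

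Cd47, chr16:49855404-49855703, plus strand: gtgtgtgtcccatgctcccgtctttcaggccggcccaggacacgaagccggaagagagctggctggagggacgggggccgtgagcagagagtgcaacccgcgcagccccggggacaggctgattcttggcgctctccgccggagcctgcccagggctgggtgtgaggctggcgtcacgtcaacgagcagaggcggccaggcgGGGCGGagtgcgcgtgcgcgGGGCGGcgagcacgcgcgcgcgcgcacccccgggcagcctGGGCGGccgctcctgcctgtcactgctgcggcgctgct

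Thbs2, chr17:14694213-14694512, minus strand: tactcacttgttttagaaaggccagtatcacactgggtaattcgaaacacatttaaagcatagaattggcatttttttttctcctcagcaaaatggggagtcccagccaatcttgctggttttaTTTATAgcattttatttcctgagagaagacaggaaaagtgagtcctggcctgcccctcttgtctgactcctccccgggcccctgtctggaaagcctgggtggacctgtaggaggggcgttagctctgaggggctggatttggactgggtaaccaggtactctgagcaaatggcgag

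Cd36, chr5:17835847-17836146, minus strand: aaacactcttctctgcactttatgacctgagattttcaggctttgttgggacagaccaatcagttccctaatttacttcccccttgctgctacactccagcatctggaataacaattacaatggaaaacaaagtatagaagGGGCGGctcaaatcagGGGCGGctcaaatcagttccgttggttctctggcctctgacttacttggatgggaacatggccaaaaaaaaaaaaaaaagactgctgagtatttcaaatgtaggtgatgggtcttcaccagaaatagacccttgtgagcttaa

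The Cd47 window held 3 GC boxes and no TATA box, the Cd36 window 2 GC boxes and no TATA box, and the Thbs2 window 1 TATA box and no GC box. Over all 32817 mouse promoter windows of this length, 35.6% held a GC box and 13.6% a TATA box. The AP-1 site TGACTCA was found in none of the 3 windows (5.20% of all windows), nor was the CArG box (1.63%). These are matches of letters and not measured sites.

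Of all barcodes, 39541 cells were kept, 571 to 1111 per library at day 0 and 907 to 3668 in the other groups. Per library, kept cells contained 3019467 to 5383855 UMIs (unique molecular identifiers, which count each captured transcript once) at day 0 and 11064153 to 39870492 in the other groups, so that day 0 values are the least precise. Cells formed 33 clusters, which were named from marker genes with the ending "-like", except for cluster 26, which was left unnamed. Its 224 cells, led by the capillary genes Rbp7, Fabp4 and Gpihbp1 and the pericyte gene Rgs5, had a marker score of 0.926 for the endothelial list and 0.840 for the pericyte/smooth muscle list, and none of the endothelial markers was among its 10 leading genes. All 12 monocyte/macrophage markers, all 8 stromal and all 8 endothelial markers were found in a higher share of cells inside than outside their lineage. So were all 7 tenocyte markers and 8 of the 9 dendritic cell markers. The median dendritic cell marker was found in 26.1% of dendritic cell-like cells. The same lists had named the clusters, so that these shares were largely set in advance and are no separate check of the names. The tenocyte-like cells are 1 cluster that was also led by the cartilage genes Col2a1, Ucma and Acan, and its marker score was 0.928 for the stromal list and 0.896 for the tenocyte list. It took its name from 3 tenocyte markers among its 10 leading genes, against 0 stromal ones. No libraries were duplicates of each other, and at most 22 cell barcodes were shared by a pair of libraries. Levels below are CPM, counts per 1000000, that is the UMIs of a gene scaled to the UMIs summed over the cells of a lineage in a library, given as mean ± SD over libraries.

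At day 7 the 5 genes had different homes. The order given here is among the named lineages that had at least 10 cells in 2 or more libraries. Cd47 was highest in plasmacytoid dendritic cell-like cells, at 1272 ± 71.9 CPM (n = 4), and this level did not overlap with that of dendritic cell-like cells at 606 ± 63.2 (n = 4). Endothelial-like cells had 420 ± 19.5 CPM of Cd47, monocyte/macrophage-like cells 379 ± 13.6 and stromal-like cells 278 ± 16.3, and pericyte/smooth muscle-like cells were lowest of these at 186 ± 12.5 (n = 4 each). The only day 7 library with enough skeletal muscle-like cells had 136 CPM there. The ranges of endothelial-like and monocyte/macrophage-like libraries overlapped, whereas those of monocyte/macrophage-like and stromal-like libraries did not. Sirpa was highest in monocyte/macrophage-like cells, at 370 ± 14.4 CPM, followed by osteoclast-like cells at 239 ± 26.5, plasmacytoid dendritic cell-like cells at 177 ± 50.6 and dendritic cell-like cells at 140 ± 21.7 (n = 4 each). Stromal-like cells had 49.6 ± 5.50 CPM of Sirpa and stood between these myeloid lineages and all others ranked, which had 37.8 or less. Granulocyte-like cells were too few at day 7 to be ranked and had 206 ± 9.78 CPM of Sirpa at day 3 (n = 3).

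Both thrombospondins were highest in tenocyte-like cells at day 7. Thbs1 reached 652 ± 156 CPM there, with ranges that overlapped from each lineage to the next through monocyte/macrophage-like (394 ± 79.7), pericyte/smooth muscle-like (313 ± 58.0) and stromal-like cells (284 ± 57.3; n = 4 each), and endothelial-like cells were lower at 142 ± 38.2. Thbs2 was at 986 ± 185 CPM in tenocyte-like, 543 ± 75.4 in stromal-like (n = 4 each), 305 ± 16.1 in Schwann cell-like (n = 3) and 95.9 ± 7.21 in pericyte/smooth muscle-like cells (n = 4), and none of these neighbours overlapped. All other named lineages with at least 2 libraries had 21.0 to 27.9 CPM of Thbs2 and overlapped, and the unnamed cluster 26 had 41.6 CPM in its 1 library. Cd36 was shared by endothelial-like (408 ± 129 CPM) and monocyte/macrophage-like cells (339 ± 115), with osteoclast-like cells at 159 ± 115 (n = 4 each), and it was at 7.85 ± 2.66 in stromal-like and 4.09 ± 1.36 in tenocyte-like cells. The unnamed cluster 26 had more Cd36 than these lineages, at 1860 CPM in its 1 library of day 7, and it had 2387 ± 392 at day 0 and 2144 ± 215 at day 21 (n = 4 each).

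To compare shares of cells at equal depth, each cell was thinned to 1500 UMIs, and the T/NK lymphocyte-like cells served as cells that should lack Thbs2 and Cd36. At day 7, 45.8% of 4661 stromal-like cells had a Thbs2 UMI after thinning (exact 95% interval 44.3 to 47.2), against 88.9% unthinned. In monocyte/macrophage-like cells the thinned share was 3.41% (2.91 to 3.96), near the 3.35% (1.46 to 6.49) of T/NK lymphocyte-like cells, and it was read as background. Cd36 was found in 35.5% (31.9 to 39.1) of endothelial-like and 19.6% (18.5 to 20.8) of monocyte/macrophage-like cells after thinning, and in 59.3% and 33.5% before it. Of the 28 cells of the unnamed cluster 26 at day 7, 92.9% (76.5 to 99.1) had a Cd36 UMI after thinning. Stromal-like cells had 1.39% (1.08 to 1.77) with Cd36 after thinning, no more than T/NK lymphocyte-like cells with 2.09% (0.683 to 4.81). Median depths before thinning were 13103 UMIs in stromal-like, 10080 in endothelial-like, 5270 in monocyte/macrophage-like and 4178 in T/NK lymphocyte-like cells. These intervals cover counting error only.

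Tests between lineages within the day 7 libraries used the library as a block. Against stromal-like cells, monocyte/macrophage-like cells had higher Cd47, Sirpa, Thbs1 and Cd36 and lower Thbs2, so that 4 of the 5 members were higher and 1 lower, where 37.3% of all genes tested were higher and 40.8% lower. Sirpa differed by 3.27 ± 0.09 on the log2 scale (SE, adjusted p = 3.8e-13, edgeR) and Thbs2 by -4.20 ± 0.10 (adjusted p = 1.1e-13, edgeR). Endothelial-like cells had 2 members higher than stromal-like cells (Cd47 and Cd36) and 3 lower (Sirpa, Thbs1 and Thbs2), where 27.7% of genes were higher and 30.9% lower. Cd36 differed by 5.45 ± 0.13 in this comparison (adjusted p = 4.3e-11, edgeR). Between monocyte/macrophage-like and endothelial-like cells 4 members (Cd47, Sirpa, Thbs1 and Thbs2) were higher in the former (33.8% of genes higher, 34.9% lower). Cd36 did not pass at 0.31 ± 0.14 (adjusted p = 0.0611, edgeR). The direction for Cd47, Thbs2 and Cd36 depended on the scaling factors (TMM) of this fit. Cd47 was at 463 ± 13.4 CPM against 346 ± 15.9 with them, but at 379 ± 13.6 against 420 ± 19.5 without them. Without them Thbs2 and Cd36 also had the lower mean in monocyte/macrophage-like cells. Thbs2 passed in this last comparison at 0.41 ± 0.12 (adjusted p = 0.00824) but not without the library block (adjusted p = 0.232), and both levels were in the range of the lineages read as background.

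Shares of the UMIs of a gene show where it was present in the whole site. At day 0, 76.1% ± 5.02 (SD, n = 4) of all Cd36 UMIs came from endothelial-like cells, and at day 3, 71.0% ± 5.56 (n = 3) came from monocyte/macrophage-like cells. Thbs1 UMIs passed from stromal-like cells (44.4% ± 10.9 at day 0) to monocyte/macrophage-like cells (74.8% ± 4.71 at day 3) and to tenocyte-like cells (79.5% ± 1.60 at day 21). Thbs2 UMIs came from stromal-like cells at day 3 (88.6% ± 0.271) and mostly from tenocyte-like cells at day 21 (70.8% ± 3.61). These shares move with the number of cells of each lineage. The tenocyte-like cells, for example, held 35.4% of all UMIs at day 21 and 0.0486% at day 3.

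**Figure D1:**
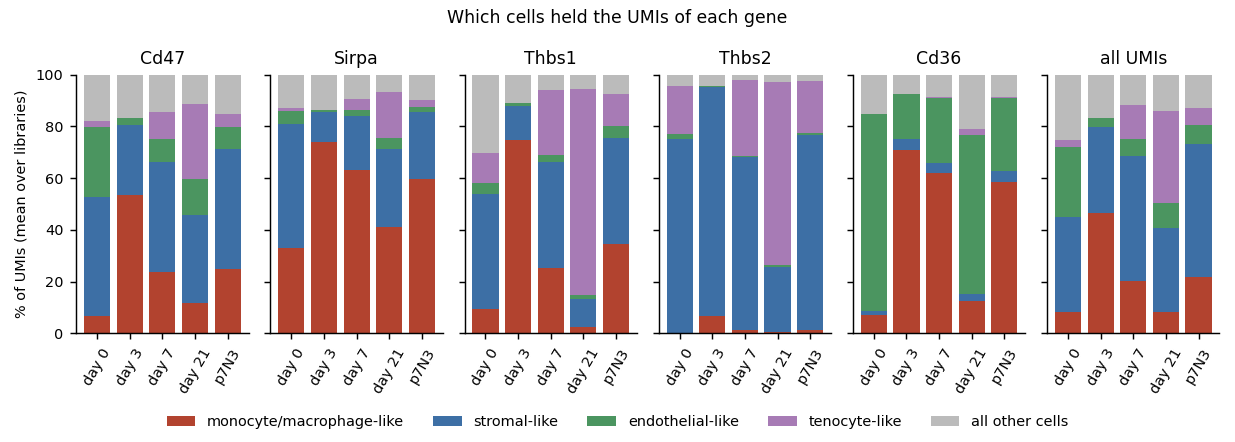
Percent of the UMIs of each gene, and of all UMIs, that came from each lineage (stacked bars, mean over the libraries of a group; groups on the horizontal axis). Cd36 passed from endothelial-like cells (76.1% at day 0) to monocyte/macrophage-like cells (71.0% at day 3), and Thbs1 was mostly in tenocyte-like cells at day 21 (79.5%).

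Summed over all cells of a library, Cd47 means ran from 276 ± 4.64 CPM at day 21 (n = 4) to 344 ± 7.74 at day 3 (n = 3). Sirpa went from 49.2 ± 7.13 CPM at day 0 to 205 ± 12.9 at day 3 and stood at 62.9 ± 9.47 at day 21. Cd36 was at 847 ± 149 CPM at day 0 and at 88.8 ± 10.1 at day 3, and Thbs1 was highest at day 21, at 965 ± 165. In the sums per lineage that follow, different clusters held most of the cells at different times. Stromal-like cells of day 0 were mostly of cluster 12 (led by Myoc and Gsn), those of day 3 of cluster 17 (Prg4, Cxcl14) and those of day 7 of clusters 3 (Crabp1, Lrrc15) and 5 (Sfrp4, Clec3b). Endothelial-like cells of day 0 were mostly of cluster 11 (Timp4, Gpihbp1) and those of days 3 and 7 of cluster 9 (Plvap, Selp). Monocyte/macrophage-like cells of day 0 were mostly of cluster 16 (Cd209f, Cd163) and those of day 3 of clusters 2 (Chil3, Ly6c2) and 6 (Ppbp, Pf4).

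**Figure D2:**
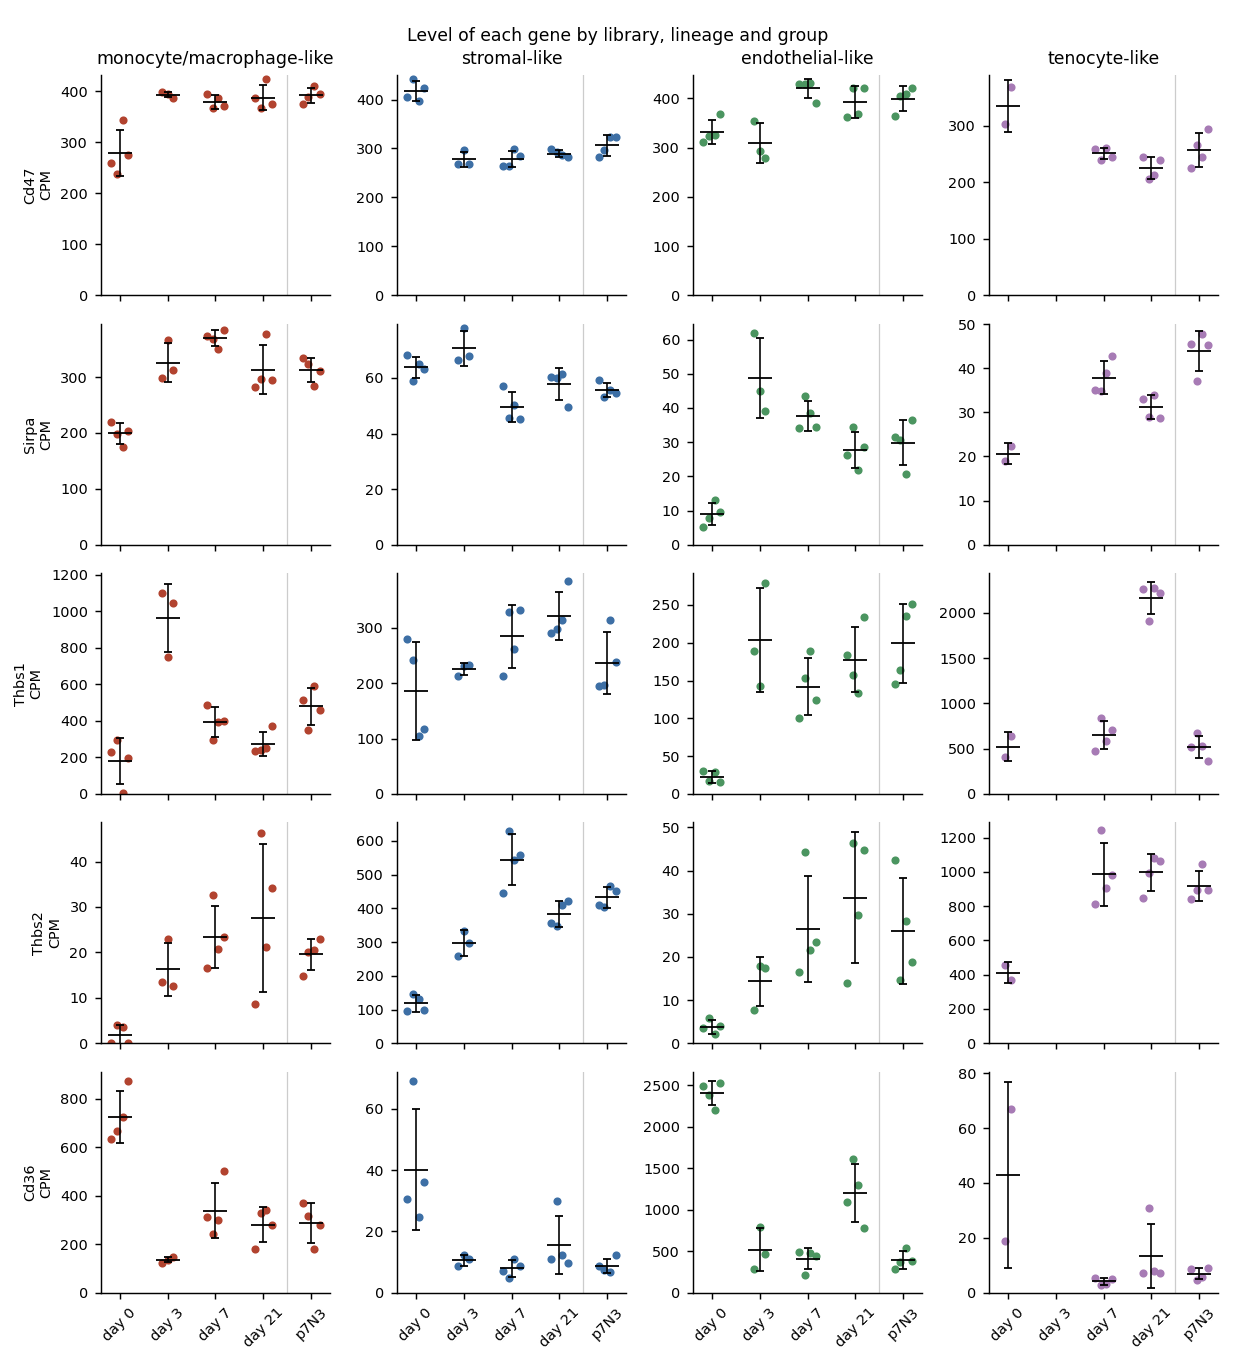
CPM of each gene (rows) in 4 lineages (columns), 1 point per library, with the mean and SD of each group as a black line and bar; the grey line separates the time course from p7N3. Cd47 was lower at day 0 than later in monocyte/macrophage-like cells and higher at day 0 than later in stromal-like cells, and Thbs1 of tenocyte-like cells reached 1907 to 2278 CPM at day 21.

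Cd47, the shared surface signal, moved in opposite directions in the sums of monocyte/macrophage-like and of stromal-like cells. In monocyte/macrophage-like cells it was at 259, 238, 343 and 275 CPM in the day 0 libraries and at 398, 395 and 387 in the day 3 libraries, which did not overlap. It rose by 0.59 ± 0.12 on the log2 scale (SE, adjusted p = 0.00133, edgeR) at day 3, by 0.69 ± 0.13 at day 7 (adjusted p = 4.3e-04) and by 0.59 ± 0.13 at day 21 (adjusted p = 0.00360), all against day 0. In stromal-like cells it was at 406, 442, 397 and 424 CPM at day 0 and at 265, 265, 299 and 284 at day 7, again without overlap. The log2 change was -0.46 ± 0.09 at day 3 (adjusted p = 4.6e-04), -0.54 ± 0.09 at day 7 (adjusted p = 2.8e-04) and -0.48 ± 0.08 at day 21 (adjusted p = 5.6e-04, edgeR). These calls held with each library left out.

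The opposite directions of Cd47 were tested in fits over both lineages, which carry their own scaling factors. The effect in monocyte/macrophage-like cells exceeded that in stromal-like cells by 1.34 ± 0.14 at day 3 (adjusted p = 2.3e-09), 1.47 ± 0.14 at day 7 (adjusted p = 8.5e-09) and 1.19 ± 0.15 at day 21 (adjusted p = 7.6e-06, edgeR). Endothelial-like Cd47 was at 332 ± 24.8 CPM at day 0 (n = 4), 309 ± 40.2 at day 3 (n = 3) and 420 ± 19.5 at day 7 (n = 4), and it rose by 0.33 ± 0.08 at day 7 (adjusted p = 0.00316, edgeR). Its call at day 21 (0.27 ± 0.09, adjusted p = 0.0461) was lost without replicate 1, 2 or 3 of day 0 or replicate 2 or 4 of day 21 (adjusted p = 0.0731 to 0.116).

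Clusters give the finer view of Cd47. They cover the groups unequally, so that the order of clusters, here and for the other genes, is given at day 7. Within stromal-like cells cluster 12 was highest, at 400 ± 85.4 CPM (n = 2), and cluster 3 lowest, at 256 ± 13.1 (n = 4). Cluster 12 had 453 ± 27.8 at day 0 and 408 ± 6.72 at day 21 (n = 4 each). Cluster 14 had 354 ± 36.6 at day 0, 331 ± 17.2 at day 7 and 276 ± 35.4 at day 21 (n = 4 each). Both of these clusters overlapped between days 0 and 7 but not between days 0 and 21. Cluster 5 had 260 ± 25.9 CPM at day 0 (n = 3) and 292 ± 21.2 at day 7 (n = 4), a mean that was not lower at day 7. Cluster 12 held 832 of 1186 stromal-like cells at day 0 and 113 of 4661 at day 7, and its part in the fall of the sums was not tested. Among monocyte/macrophage-like clusters the interferon gene cluster 15 (Ifit3, Isg15) was highest at 523 ± 41.7 CPM, and clusters 16 (327 ± 15.1) and 1 (331 ± 8.20) were the lowest (n = 4 each). Cluster 16, which was present at every time, had 251 ± 47.1 at day 0 (n = 4) and 388 ± 35.4 at day 3 (n = 3), when cluster 6 was lower at 365 ± 7.33 (n = 3). The endothelial-like cluster 25, led by the lymphatic genes Mmrn1 and Prox1, was highest at 543 ± 60.6 CPM (n = 4) and cluster 11 lowest at 371 ± 0.361 (n = 2). At day 0 cluster 25 had 690 ± 98.8 (n = 2) and cluster 11 had 303 ± 23.0 (n = 4). Cluster 9 had 368 ± 44.6 at day 0 (n = 3) and 395 ± 24.7 at day 7 (n = 4), which overlapped. The rise of the endothelial-like sums at day 7 was thus not seen in cluster 25.

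Sirpa, the phagocyte receptor for CD47, rose in monocyte/macrophage-like cells after injury. It was at 220, 199, 175 and 204 CPM in the day 0 libraries, at 299, 366 and 313 in the day 3 libraries and at 374, 368, 351 and 385 in the day 7 libraries. Day 0 did not overlap with any later group. Its log2 change was 0.78 ± 0.11 at day 3 (adjusted p = 1.2e-04), 1.12 ± 0.12 at day 7 (adjusted p = 1.9e-06) and 0.75 ± 0.14 at day 21 (adjusted p = 6.0e-04, edgeR). Among the clusters at day 7, Sirpa was highest in cluster 6 (444 ± 44.5 CPM) and lowest in the monocyte gene cluster 2 (204 ± 30.8, n = 4 each). Within cluster 16 it was at 185 ± 42.0 at day 0 (n = 4) and 281 ± 14.6 at day 7 (n = 4). Cluster 2 had 276 ± 7.82 at day 0 (n = 2), the highest mean among the clusters of that day.

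Sirpa was also counted in endothelial-like cells, where it was at 5.25, 7.93, 13.2 and 9.60 CPM at day 0, at 61.8, 45.0 and 39.2 at day 3 and at 34.1, 43.6, 38.6 and 34.5 at day 7. The log2 change was 2.55 ± 0.27 at day 3 (adjusted p = 4.5e-06), 2.07 ± 0.22 at day 7 (adjusted p = 2.5e-06) and 1.65 ± 0.25 at day 21 (adjusted p = 5.5e-04, edgeR). Too few day 0 libraries reached the filter on low counts, so that Sirpa passed it through the later libraries and could only be called higher. Macrophage transcripts moved with it. All 12 monocyte/macrophage markers were detected in these sums in every group, and their summed level was 230 to 480 CPM at day 0, was between 1387 and 1651 at day 3, and lay between 417 and 813 at day 7. At day 3 endothelial-like Sirpa was 14.9% of its level in monocyte/macrophage-like cells and the marker list 6.21% of its own, and at day 7 these were 10.2% and 1.78%. The day 7 level, 37.7 ± 4.39 CPM, overlapped with the 35.8 ± 26.9 of T/NK lymphocyte-like cells (n = 4 each). After thinning, 5.93% (4.31 to 7.93) of endothelial-like and 4.18% (2.02 to 7.56) of T/NK lymphocyte-like cells had a Sirpa UMI at day 7. At day 7 cluster 25 held the most endothelial-like Sirpa, at 107 ± 33.4 CPM (n = 4), and cluster 11 the least, at 7.73 ± 10.9 (n = 2). The part of macrophage transcripts in the change was not tested.

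Stromal-like Sirpa stayed between 45.4 and 77.8 CPM in every library of the time course. It was called higher at day 3 (0.26 ± 0.10, adjusted p = 0.0453) and lower at day 7 (-0.34 ± 0.11, adjusted p = 0.0226, edgeR). The day 3 call was lost without replicate 1, 2, 3 or 4 of day 0 or replicate 2 of day 3 (adjusted p = 0.0513 to 0.104), and the day 7 call without replicate 1, 3 or 4 of day 0 or replicate 4 of day 7 (adjusted p = 0.0514 to 0.0862). At day 3 the monocyte/macrophage list in stromal-like sums was at 1573 to 1768 CPM, against 122 to 245 at day 0. Among stromal-like clusters with at least 2 libraries at day 7, means ran from 36.9 ± 1.42 CPM in cluster 3 (n = 4) to 83.0 ± 24.1 in cluster 17 (n = 3).

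Thbs1, the thrombospondin ligand of CD47 and CD36, was highest at day 3 in monocyte/macrophage-like cells. It was at 230, 294, 3.65 and 197 CPM in the day 0 libraries, at 1098, 749 and 1042 at day 3, at 489, 294, 394 and 397 at day 7 and at 235, 243, 251 and 373 at day 21. Day 0 replicate 3, with 1 UMI, stood far below the other day 0 libraries. The log2 change against day 0 was 2.48 ± 0.46 at day 3 (adjusted p = 7.0e-04) and 1.34 ± 0.39 at day 7 (adjusted p = 0.0124, edgeR), and 0.70 ± 0.40 at day 21 did not pass (adjusted p = 0.203). The day 7 call was lost with DESeq2 (adjusted p = 0.231). From day 7 to day 21 the change of -0.56 ± 0.17 (adjusted p = 0.0435) was lost without replicate 1, 3 or 4 of day 7 or replicate 1, 2 or 3 of day 21 (adjusted p = 0.0693 to 0.121).

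The level of Thbs1 differed widely between monocyte/macrophage-like clusters. Cluster 2, with the monocyte genes Chil3 and Ly6c2, was highest at each time, with 1267 ± 79.4 CPM at day 0 (n = 2), 1745 ± 181 at day 3 (n = 3), 1651 ± 306 at day 7 (n = 4) and 714 ± 281 at day 21 (n = 3). Cluster 16, with the resident macrophage genes Cd163 and Cd209f, was lowest at days 3, 7 and 21 and went from 16.4 ± 8.49 at day 0 (n = 4), when cluster 0 was lower at 9.35 ± 16.2 (n = 3), to 92.0 ± 3.06 at day 3 (n = 3) and 110 ± 27.2 at day 7 (n = 4). At day 3, 1678 of the 3770 monocyte/macrophage-like cells belonged to cluster 2, against 32 of 359 at day 0. Granulocyte-like cells carried 1343 ± 35.7 CPM of Thbs1 at day 3 (n = 3), and the 8 granulocyte markers summed to 5147 to 7406 CPM in the monocyte/macrophage-like cells at day 3 and 907 to 1241 at day 0. Thbs1 of monocyte/macrophage-like cells at day 3 was 71.7% of that in granulocyte-like cells, and the marker list 7.45% of its own level. The part of granulocyte transcripts was not tested.

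In endothelial-like cells Thbs1 was at 30.6, 16.8, 28.5 and 15.2 CPM at day 0, at 189, 143 and 279 at day 3 and at 184, 158, 134 and 234 at day 21, with no overlap between day 0 and later groups. Against day 0 it changed on the log2 scale by 3.28 ± 0.26 at day 3 (adjusted p = 4.2e-07), 2.63 ± 0.24 at day 7 (adjusted p = 6.2e-07) and 3.01 ± 0.24 at day 21 (adjusted p = 3.1e-05, edgeR). Endothelial-like Thbs1 at day 21 was 64.5% of that in monocyte/macrophage-like cells, where the monocyte/macrophage list was 1.19% of its own level, and 55.3% of that in stromal-like cells, where the stromal list was 2.66%. Tenocyte-like cells, with 2165 ± 174 CPM of Thbs1 at day 21 (n = 4), were not among the sources compared. The part of transcripts from other cells in the change was not tested. At day 3 the 8 granulocyte markers summed to 1752 to 2811 CPM in the endothelial-like sums, against 30.4 to 53.9 at day 0 and 150 to 375 at day 7. Within the capillary gene cluster 11 it was at 16.9 ± 9.70 at day 0 (n = 4) and 51.1 ± 9.13 at day 21 (n = 4), and within cluster 25 at 46.4 ± 33.5 (n = 2) and 441 ± 213 (n = 4).

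Stromal-like Thbs1 had 280, 242, 105 and 117 CPM at day 0 and 213, 329, 262 and 332 at day 7, which overlapped. Its calls at day 7 (0.67 ± 0.26, adjusted p = 0.0437) and at day 21 (0.85 ± 0.25, adjusted p = 0.0222, edgeR) were both lost with replicates 1 to 3 only (adjusted p = 0.233 and 0.112). They were also lost without day 0 replicate 3 or without day 0 replicate 4, with adjusted p from 0.0547 to 0.130, and the day 7 call without replicate 2, 3 or 4 of day 7 (adjusted p = 0.0580 to 0.102). At day 7 the stromal-like clusters 3 (349 ± 63.6) and 13 (339 ± 57.2) had the highest means, and cluster 5 (140 ± 10.7) the lowest (n = 4 each). At day 0 cluster 29 was highest, at 736 ± 523 (n = 3).

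Among the lineages with enough cells, Thbs1 was highest at day 0 in pericyte/smooth muscle-like cells (693 ± 60.1 CPM, n = 4), and at day 21 in tenocyte-like cells. Tenocyte-like Thbs1 was at 407 and 636 CPM in the day 0 libraries that had enough cells, at 474, 837, 589 and 708 at day 7 and at 2258, 1907, 2278 and 2217 at day 21. The day 21 mean was 3.32 times that of day 7 and did not overlap with it (exact permutation test, two-sided, p = 0.0286, the smallest that 4 against 4 libraries can give; adjusted p = 0.143 over 15 tests). Thbs2 of the same cells was at 986 ± 185 at day 7 and 996 ± 106 at day 21 (n = 4 each). This lineage was taken up for tests over time after its values had been seen.

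Thbs2 rose in stromal-like cells. It was at 96.7, 147, 132 and 98.8 CPM at day 0, at 258, 334 and 297 at day 3, at 445, 628, 543 and 558 at day 7 and at 355, 348, 411 and 423 at day 21. No later group overlapped with day 0, and day 21 lay below day 7 without overlap. The log2 change was 1.46 ± 0.14 at day 3 (adjusted p = 2.0e-06), 2.25 ± 0.15 at day 7 (adjusted p = 1.6e-07) and 1.75 ± 0.14 at day 21 (adjusted p = 4.1e-06), and -0.50 ± 0.12 from day 7 to day 21 (adjusted p = 0.0112, edgeR). Cluster 3, which carries the activated fibroblast genes Lrrc15 and Tnc, was highest at day 7 at 787 ± 75.0 CPM (n = 4), and cluster 12 had the lowest mean of those with at least 2 libraries, at 162 ± 7.11 (n = 2). Within cluster 12 Thbs2 was at 96.5 ± 11.6 at day 0 (n = 4) and 130 ± 7.01 at day 21 (n = 4), and within cluster 5 at 256 ± 176 (n = 3) and 358 ± 17.0 (n = 4). Thbs2 of pericyte/smooth muscle-like cells was at 17.2 ± 18.6 CPM at day 0 and 95.9 ± 7.21 at day 7 (n = 4 each).

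Thbs2 of monocyte/macrophage-like cells had 2 UMIs among 1388623 at day 0 and 664 among 28583729 at day 7, a ratio of 16.1 (95% counting interval 4.45 to 133). The change passed at day 7 (adjusted p = 2.8e-04, edgeR), and the gene was too low to be tested at days 3 and 21. The stromal markers were all detected in these sums, at 475 to 803 CPM at day 0 and 1281 to 1599 at day 7. Thbs2 in monocyte/macrophage-like cells was 1.61% of its stromal-like level at day 0 and 4.30% at day 7, beside 1.27% and 2.60% for the stromal list. In endothelial-like cells it was at 3.87 ± 1.62 CPM at day 0 and 26.5 ± 12.3 at day 7 (n = 4 each), a log2 change of 2.74 ± 0.42 (adjusted p = 8.5e-05), and 33.7 ± 15.1 at day 21 (3.10 ± 0.47, adjusted p = 5.6e-04, edgeR). There it was 3.26% and 4.88% of the stromal-like level at days 0 and 7, beside 1.22% and 3.36% for the stromal list. Tenocyte-like cells, with 986 ± 185 CPM of Thbs2 at day 7 (n = 4), were not compared as a source. The part of stromal or tenocyte transcripts in these changes was not tested.

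Cd36, the thrombospondin and fatty acid receptor, was highest at day 0 and fell in endothelial-like and monocyte/macrophage-like cells. Endothelial-like libraries had 2492, 2383, 2207 and 2529 CPM at day 0, 283, 793 and 467 at day 3, 487, 215, 481 and 446 at day 7 and 1090, 1611, 1302 and 779 at day 21. Day 0 did not overlap with later groups, and day 21 lay above day 7 without overlap. On the log2 scale it changed by -2.10 ± 0.26 at day 3 (adjusted p = 2.1e-05), -2.57 ± 0.20 at day 7 (adjusted p = 1.7e-07) and -0.99 ± 0.16 at day 21 (adjusted p = 9.5e-04), and 1.58 ± 0.26 from day 7 to day 21 (adjusted p = 9.6e-04, edgeR). The endothelial-like sums of day 3 rested on 31, 31 and 32 cells.

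The endothelial-like clusters differed more in Cd36 than the times did within cluster 11. This cluster, with the capillary genes Gpihbp1 and Aqp7, had 2593 ± 173 CPM at day 0 (n = 4), 2495 ± 54.5 at day 7 (n = 2) and 2278 ± 243 at day 21 (n = 4). It held 931 of 1026 endothelial-like cells at day 0, 36 of 708 at day 7 and 338 of 691 at day 21. In cluster 9 Cd36 was at 1798 ± 513 at day 0 (n = 3), 461 ± 136 at day 7 (n = 4) and 722 ± 135 at day 21 (n = 4), and cluster 25, with lymphatic genes, had 63.6 ± 25.8 at day 0 (n = 2) and 21.9 ± 10.7 at day 7 (n = 4).

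Cd36 of monocyte/macrophage-like cells was at 633, 667, 726 and 875 CPM at day 0, at 124, 136 and 145 at day 3, at 310, 240, 300 and 504 at day 7 and at 178, 327, 340 and 277 at day 21. Again day 0 lay above every later library. The log2 change was -2.34 ± 0.13 at day 3 (adjusted p = 5.6e-08), -0.85 ± 0.18 at day 7 (adjusted p = 0.00176) and -1.26 ± 0.17 at day 21 (adjusted p = 4.7e-05, edgeR). The decrease at day 7 was smaller than in endothelial-like cells by 1.76 ± 0.19 (adjusted p = 4.5e-07, edgeR). At day 0, Cd36 was 30.2% of its endothelial-like level and the endothelial list 1.47% of its own. Cluster 1, led by Gpnmb, Arg1 and Spp1 among others, was highest at day 7 at 812 ± 123 CPM, and cluster 2 lowest at 29.3 ± 30.0 (n = 4 each). At day 0 cluster 16 was highest, and Cd36 within it was at 883 ± 98.0 at day 0 (n = 4), 274 ± 191 at day 3 (n = 3) and 189 ± 67.9 at day 7 (n = 4).

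Stromal-like Cd36 was at 30.4, 68.9, 24.7 and 36.2 CPM at day 0 and 7.02, 4.68, 11.0 and 8.73 at day 7, and fell by 2.20 on the log2 scale (SE 0.30, adjusted p = 4.7e-05, edgeR). The level at day 0 was 1.67% of that in endothelial-like cells, and the endothelial list in the same sums 1.60% of its own, and in barcodes of day 0 replicate 1 with at most 100 UMIs, which hold free RNA, Cd36 was at 343 CPM. The call at day 21 (-1.31 ± 0.37, adjusted p = 0.0174) was lost without day 0 replicate 2 (adjusted p = 0.0546).

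**Figure D3:**
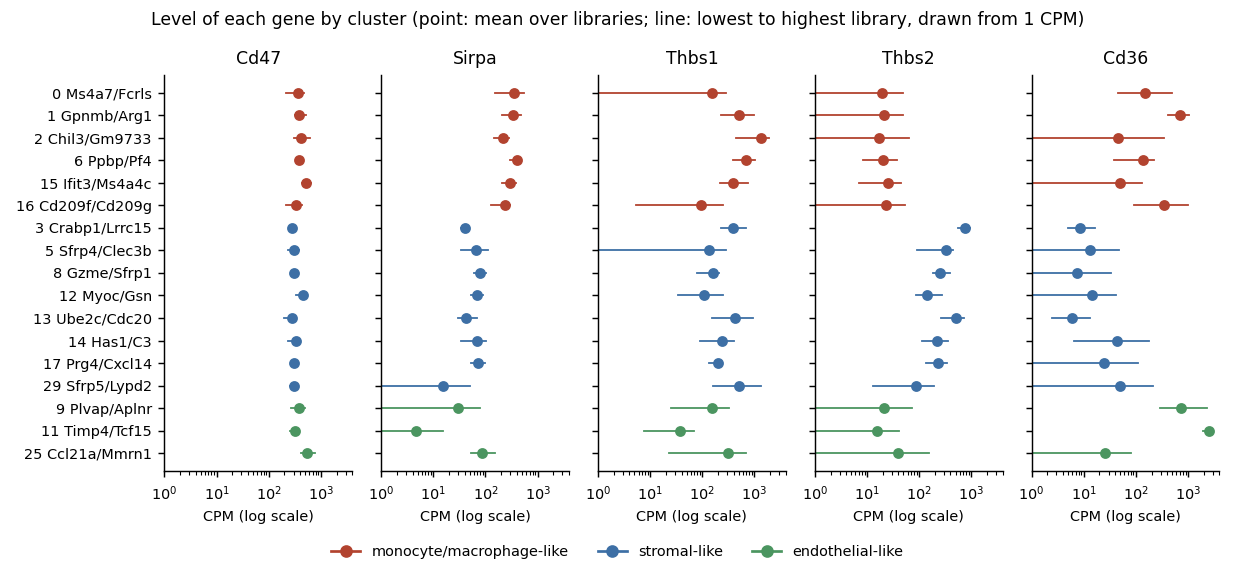
CPM of each gene on a log scale in the clusters of the 3 fitted lineages, numbered and named by leading genes; points are means over the libraries of all groups with at least 10 cells, which cover the groups unequally, and lines run from the lowest to the highest library. Cd47 varied least, Thbs1 reached 1340 CPM in cluster 2, Thbs2 747 in cluster 3 and Cd36 2474 in cluster 11.

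Counts of calls are given beside those over all genes tested in the same comparison. In monocyte/macrophage-like cells, 3 of the 4 members tested at day 3 were higher than at day 0 and 1 lower (all genes 25.7% higher, 27.6% lower). At day 7 it was 4 of 5 higher and 1 lower (18.2% and 16.8%), and at day 21 2 of 4 higher and 1 lower (12.4% and 14.3%). From day 7 to day 21, 0 of 5 were higher and 1 lower (7.03% and 6.66%). In stromal-like cells, 2 of 5 were higher and 2 lower at day 3 (33.4% and 32.8%), 2 higher and 3 lower at day 7 (27.9% and 26.3%), and 2 higher and 2 lower at day 21 (16.6% and 16.7%), and from day 7 to day 21 0 were higher and 1 lower (17.5% and 18.2%). In endothelial-like cells, 2 of 4 were higher and 1 lower at day 3 (28.7% and 28.2%), 4 of 5 higher and 1 lower at day 7 (29.2% and 29.5%) and at day 21 (14.4% and 14.2%), and from day 7 to day 21 1 was higher and 0 lower (15.3% and 13.3%). The members higher in monocyte/macrophage-like cells at day 7, and in endothelial-like cells at days 7 and 21, include Thbs2. Its day 0 levels there were 1.91 ± 2.20 and 3.87 ± 1.62 CPM (n = 4 each). It passed the filter on low counts only through the later libraries, so that it could only be called higher. The members lower in stromal-like cells at days 3, 7 and 21 include Cd36. At day 7 its share of thinned cells there was no larger than in T/NK lymphocyte-like cells. Large shares of all genes passed in these comparisons over time, and a call by itself says little about the members.

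**Figure D4:**
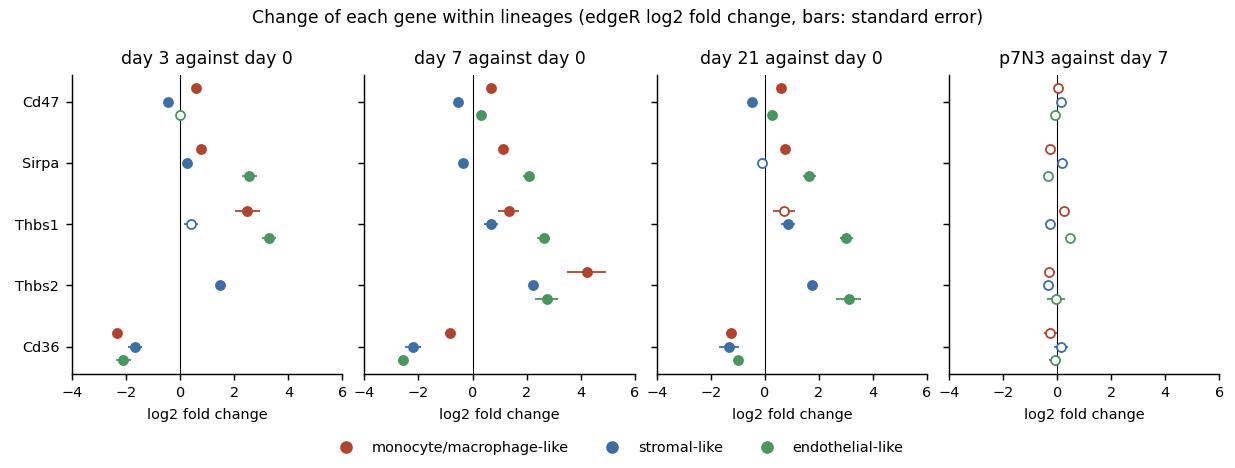
Log2 fold change of each gene (rows) in 3 lineages (colours) for days 3, 7 and 21 against day 0 and for p7N3 against day 7, with standard errors as bars; filled points passed an adjusted p of 0.05 in edgeR, open points did not. Cd47 lies on opposite sides of 0 in monocyte/macrophage-like and stromal-like cells at all 3 times. At these times Cd36 lies below 0 in all 3 lineages, and no point of p7N3 is filled. Stromal-like Cd36 was low, with a UMI in 1.39% of thinned cells at day 7, against 2.09% of T/NK lymphocyte-like cells.

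The p7N3 comparison asks whether a peptide that activates CD47 changed these genes at day 7. By edgeR 0 of 5 members passed in monocyte/macrophage-like, stromal-like or endothelial-like cells, and 0 (0% higher, 0% lower) of all 10896, 13358 and 10130 genes tested in the 3 lineages passed. At an unadjusted p under 0.05 there were 849, 1599 and 775 genes, and DESeq2 called 26, 112 and 0 genes, with no member among them. Sirpa of monocyte/macrophage-like cells was at 335, 323, 284 and 311 CPM with p7N3 and at 374, 368, 351 and 385 without it. The groups did not overlap, but the log2 change of -0.26 ± 0.08 did not pass (adjusted p = 0.414, edgeR). Cd47 in the same cells was at 392 ± 15.0 with and 379 ± 13.6 CPM without the peptide (log2 change 0.03 ± 0.07, adjusted p = 0.946), and Thbs1 at 479 ± 103 and 394 ± 79.7 (0.27 ± 0.16, adjusted p = 0.715).

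In stromal-like cells Thbs2 was at 432 ± 30.1 CPM with p7N3 and 543 ± 75.4 without it (-0.33 ± 0.11, adjusted p = 0.316, edgeR), and Cd47 at 306 ± 21.1 and 278 ± 16.3 (0.14 ± 0.08, adjusted p = 0.531; n = 4 each). In endothelial-like cells Thbs1 was at 199 ± 51.8 and 142 ± 38.2 (0.47 ± 0.19, adjusted p = 0.586), Sirpa at 29.9 ± 6.60 and 37.7 ± 4.39 (-0.35 ± 0.16, adjusted p = 0.645) and Cd36 at 392 ± 107 and 408 ± 129 (-0.07 ± 0.23, adjusted p = 0.967, edgeR). These lineage values overlapped between the groups. In the stromal-like cluster 5, Cd47 was at 362 ± 13.5 CPM with p7N3 and 292 ± 21.2 without it (n = 4 each). In cluster 12 it was at 525 ± 19.2 (n = 3) and 400 ± 85.4 (n = 2), and neither cluster overlapped between the groups. Clusters 3, 8, 13, 14 and 17 did overlap, and cluster 17 had the lower Cd47 mean with p7N3. Clusters were not tested with p7N3. In 5 other lineages the 25 exact permutation tests gave no adjusted p under 0.571. An adjusted p under 0.05 would have needed most of these tests to reach 0.0286, the smallest p possible, so this outcome says little. The smallest raw p was 0.0286 for Cd36 of osteoclast-like cells, at 34.7 ± 22.1 CPM with p7N3 and 159 ± 115 without it (two-sided exact test, n = 4 each, the smallest p that 4 against 4 can give). The libraries were at 19.5, 50.9, 12.2 and 56.4 with p7N3 and at 120, 98.4, 330 and 87.9 without it, and without day 7 replicate 3 the mean was 102 CPM (exact p = 0.0571, the smallest that 4 against 3 can give). Thbs1 of tenocyte-like cells was at 520 ± 123 and 652 ± 156 (exact p = 0.257), and Cd47 of T/NK lymphocyte-like cells at 604 ± 93.3 and 485 ± 71.2 (exact p = 0.114). Absence of a call here does not show that the groups were alike.

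The 41 other genes of the pathway were the further thrombospondins, the SIRP family and partners of its tail, CD47 partners, the nitric oxide arm, the lipid handling genes around CD36 and the clearance signals beside CD47. In monocyte/macrophage-like cells 13 of 29 tested were higher and 8 lower at day 3 (all genes 25.7% and 27.6%), 16 of 36 higher and 5 lower at day 7 (18.2% and 16.8%), and 12 of 29 higher and 5 lower at day 21 (12.4% and 14.3%), with medians of 0.42, 0.60 and 0.41 on the log2 scale beside medians of 0.01, 0.00 and -0.03 over all genes. Of the 9 genes of the SIRP family and its partners, 8 rose and 0 fell at day 7 (all genes 18.2% and 16.8%), and 6 rose and 1 fell at day 3. At day 7, 2 of 7 CD47 partners were higher and 1 lower, 4 of 10 CD36 partners and lipid handling genes higher and 2 lower, 1 of 7 clearance signals higher and 2 lower, and 1 of 3 further thrombospondins higher. Those of the SIRP family that rose at day 7 included Sirpb1a, Sirpb1b and Sirpb1c, activating relatives of Sirpa whose similar sequences may share reads, and Tyrobp, the adaptor of many activating receptors. Sirpb1a, the named one of these, went from 3.88 ± 5.69 CPM at day 0 (n = 4) to 43.5 ± 3.65 at day 3 (n = 3). Fabp5, a fatty acid binding protein, went from 34.8 ± 17.8 to 2741 ± 633 CPM at day 7 (n = 4 each; log2 6.16 ± 0.26, adjusted p = 8.0e-11, edgeR). Cd24a, which encodes another signal against engulfment, went from 3.17 ± 4.12 to 47.6 ± 20.6 at day 3. At these day 0 levels Sirpb1a and Cd24a passed the filter on low counts only through the later libraries. Such genes could only be called higher, and they are part of the counts of genes that rose. How many other genes of the list share this limit was not counted. The engulfment receptor Mertk and its ligand Gas6 were called lower at all 3 times. These and the following levels are CPM after TMM scaling.

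In stromal-like cells 14 of 34 pathway genes were higher and 12 lower at day 3 (all genes 33.4% and 32.8%), 15 of 36 higher and 9 lower at day 7 (27.9% and 26.3%), and 11 of 33 higher and 7 lower at day 21 (16.6% and 16.7%). The largest changes were in myeloid genes, beside the monocyte/macrophage list that stood at 1573 to 1768 CPM in these sums at day 3. Tyrobp went from 12.0 ± 3.25 to 466 ± 43.4 CPM at day 3, and Sirpb1c had no UMI in the day 0 sums and 312 at day 3, at least 22.2-fold higher against a floor of 3 counts over the group. With no UMI at day 0, Sirpb1c could only be called higher. Fabp5 rose at day 7 from 19.7 ± 11.3 to 392 ± 139 CPM (n = 4 each). The subunits of the nitric oxide receptor, Gucy1a3 and Gucy1b3, were called lower at days 3 and 7. From day 7 to day 21, 9 of 40 were higher and 12 lower (17.5% and 18.2%).

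In endothelial-like cells 8 of 29 were higher and 12 lower at day 3 (all genes 28.7% and 28.2%), 6 of 29 higher and 12 lower at day 7 (29.2% and 29.5%), and 5 of 29 higher and 6 lower at day 21 (14.4% and 14.2%), and from day 7 to day 21 15 of 34 were higher and 4 lower (15.3% and 13.3%). Of the 8 CD36 partners and lipid handling genes tested, 1 was higher and 6 lower at day 3, 1 higher and 5 lower at day 7, and 1 higher and 4 lower at day 21. Lpl, lipoprotein lipase, fell from 895 ± 151 CPM at day 0 to 17.5 ± 10.3 at day 7 (n = 4 each; log2 -5.64 ± 0.31, adjusted p = 6.4e-09, edgeR), and Pparg, Fabp4 and Fabp5 were called lower at days 3, 7 and 21. Nos3, the endothelial nitric oxide synthase, was called lower at days 3 and 7. Cluster 11, led among others by Fabp4, held 931 of 1026 endothelial-like cells at day 0 and 36 of 708 at day 7. Changes of these pathway genes within clusters were not tested. Thbs4 went from 5.08 ± 6.51 to 49.0 ± 20.3 CPM at day 21 (n = 4 each), and Tyrobp from 26.3 ± 8.28 to 429 ± 37.2 at day 3, in the sums that held the most macrophage transcripts. Thbs4 passed the filter on low counts only through the day 21 libraries, so that it could only be called higher. From day 7 to day 21 in monocyte/macrophage-like cells 6 of 36 pathway genes were higher and 8 lower (7.03% and 6.66%), and with p7N3 0 of 37, 0 of 40 and 0 of 32 passed in the 3 lineages (medians 0.01, 0.03 and 0.03).

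Over 49 combinations of lineage and group, the genes whose levels followed each member most closely among 13520 genes were named by the Pearson correlation of log2(mean CPM + 1), as a description. For Cd47 they were Ifnar1 (r = 0.892), Tapbp (0.850) and Sub1 (0.846). For Sirpa they were Rbm47 (0.879), Npc2 (0.878) and Creg1 (0.862), and for Thbs1 Dse (0.749), Hp (0.731) and Hif1a (0.722). Thbs2 ran with the collagen genes Col12a1 (0.930), Col1a1 (0.925) and Col1a2 (0.914), and Cd36 with Cd93 (0.884), Cracr2b (0.818) and Lyve1 (0.760). The combinations share libraries, and no test was made.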

How the data were processed

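Tenotomy site cells of 19 libraries were profiled by droplet sequencing. The authors aligned reads to mm10 with Cell Ranger and deposited raw UMI counts per gene and barcode, not normalized. Seurat is also named in the submitters' notes, whose build label differs from mm10. Barcodes with under 500 genes or over 25% mitochondrial UMIs were removed, and 39541 cells clustered with scanpy 1.11.5 and leidenalg 0.10.2 (2000 variable genes without the members and 41 pathway genes, 30 components, 20 neighbours, resolution 0.8). A cluster took the name of its highest marker list with at least 3 markers in at least 25% of its cells, or of the list with at least 3 genes among its 10 leading genes where these went against the former. Doublets were not removed. UMIs were summed per library and lineage with at least 10 cells and compared with edgeR 4.0.16 (quasi-likelihood, TMM, filterByExpr, 2 groups per fit), adjusted over all genes by Benjamini-Hochberg at 0.05. DESeq2 1.42.0 was an alternative. Other lineages were compared by exact permutation tests. The members, pathway list and marker lists were chosen with earlier results of these data known. Named pathway genes were the 3 per lineage with the largest change among those called and not overlapping between groups, over days 3, 7 and 21. Mertk, Gas6, Tyrobp in other lineages and the other pathway genes named were chosen after their values were seen. On simulated data with 200 genes changed 2-fold, 39.5% to 81% were recovered and 2.61% to 9.2% of calls were false. Genotypes, reads and alignments were not analysed here.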

Additional observations from a re-analysis of the deposited data

Results flagged for a closer look

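Effects in opposite directions in a pair of lineages, each past the threshold, were found for Cd47 and Sirpa. The Cd47 effect in monocyte/macrophage-like cells less that in stromal-like cells was 1.34 at day 3, 1.47 at day 7 and 1.19 at day 21 on the log2 scale. Between endothelial-like and stromal-like cells it was 0.88 at day 7 and 0.71 at day 21, where the endothelial-like effect itself was 0.27 and was lost under several alternatives. For Sirpa at day 7 the effect in stromal-like cells (-0.34) differed from that in monocyte/macrophage-like cells (1.12) by 1.69 and from that in endothelial-like cells (2.07) by 2.40. The stromal-like libraries overlapped between the groups, and this stromal-like call was lost with any of several single libraries left out. The adjusted p of these differences between lineages was 5.1e-04 or less (edgeR, library as a block).

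In 60 groups of 4 libraries, 6 held a library far from the other 3, where chance flags about 1 in 20. Cd47 of endothelial-like cells at day 7 was lowest in replicate 4, at 391 CPM against 429 to 431. Cd36 of the same cells and time was lowest in replicate 2, at 215 CPM against 446 to 487. The other flags were of day 21. Sirpa was at 378 CPM in monocyte/macrophage-like cells of replicate 3 against 283 to 296, and at 49.4 CPM in stromal-like cells of replicate 4 against 60.1 to 61.6. Thbs1 of monocyte/macrophage-like cells was at 373 CPM in replicate 4 against 235 to 251, and Cd36 of stromal-like cells at 29.8 CPM in replicate 2 against 9.60 to 12.2.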

How the results depend on the processing

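Of 305 counts of members called under an alternative, 280 stayed within 1.5 times the main count. The others, with the members concerned, were as follows. In monocyte/macrophage-like cells day 21 against day 0 gave 5 (main 3) without a filter on low counts. Day 21 against day 7 (main 1) gave 2 with DESeq2, 2 without the filter, 2 with members allowed as variable genes and 0 at Leiden resolution 2, and 0 to 1 with a library left out. With members allowed as variable genes, a cluster of 3085 cells (Mmp12, Arg1, Gpnmb) was left unnamed. The monocyte/macrophage-like sums of that setting therefore lacked these cells. In stromal-like cells day 7 against day 0 (main 5) gave 3 with replicates 1 to 3 only and 3 to 5 with a library left out, and day 21 against day 0 (main 4) gave 2 with replicates 1 to 3 only. Day 21 against day 7 (main 1) gave 2 with DESeq2, 2 in a single fit of all 5 groups, 3 without the top Scrublet scores and 1 to 3 with a library left out. In endothelial-like cells day 21 against day 7 (main 1) gave 2 with RLE factors, 2 at no more than 10% mitochondrial UMIs, 2 with members allowed as variable genes, and 1 to 2 with a library left out. No member passed with p7N3 under any alternative. In the lineages compared by exact tests the only alternative was a library left out. With 4 against 3 libraries no exact p under 0.05 was possible there.

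Of 1430 log2 values of single members under alternatives, 1327 kept direction and side of the threshold, 53 fell below it, 23 passed it and 27 changed sign, none of which had passed in the main fit. Changes of sign were as follows for these members. For Thbs2 in monocyte/macrophage-like cells, day 21 against day 7, they were -0.04 with replicates 1 to 3 only, -0.12 without day 21 replicate 2 and -0.03 without day 21 replicate 4 (range with a library left out -0.12 to 0.45), and Cd36 there gave 0.46 with members as variable genes. With p7N3 in monocyte/macrophage-like cells, Cd36 gave 0.02 with replicates 1 to 3 only and 0.0005 without day 7 replicate 4 (range -0.41 to 0.0005), and with members as variable genes Cd47 gave -0.003 and Thbs1 -0.04. All these monocyte/macrophage-like values with members as variable genes lack the unnamed Arg1 and Gpnmb cluster, and so rest on a different set of cells. With p7N3 in stromal-like cells, Cd36 gave -0.14 without the top Scrublet scores, -0.03 without day 7 replicate 2 and -0.04 without p7N3 replicate 4 (range -0.04 to 0.36). With p7N3 in endothelial-like cells, Thbs2 gave 0.07 with replicates 1 to 3 only, 0.003 with members as variable genes and -0.39 to 0.36 with a library left out (3 of them above 0, at 0.10, 0.15 and 0.36), and Cd36 -0.28 to 0.05 (3 above 0, at 0.02, 0.04 and 0.05). Endothelial-like Cd47 at day 3 gave -0.03 without the filter, -0.02 in a single fit, -0.003 at no more than 10% mitochondrial UMIs, -0.09 without the top Scrublet scores and -0.06 to 0.09 with a library left out (-0.02 and -0.03 among them).

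The replicate number as a block changed the call of members Sirpa in stromal-like cells at day 3 (0.26, adjusted p = 0.124) and Cd47 in endothelial-like cells at day 21 (0.26, adjusted p = 0.0522), so that 3 and 4 members passed there, and changed no other call. Members called under the block were 4, 5, 3, 1 and 0 in monocyte/macrophage-like, 3, 5, 4, 1 and 0 in stromal-like and 3, 5, 4, 1 and 0 in endothelial-like cells for days 3, 7 and 21 against day 0, day 21 against day 7 and p7N3. Same-numbered libraries deviated together little (correlations -0.142 to 0.269), and the numbers were not taken as pairs. The highest correlation was of replicate 4 in stromal-like cells, day 21 against day 7. The same libraries gave 0.137 in monocyte/macrophage-like and 0.00112 in endothelial-like cells. Whether the replicate 4 libraries shared a batch was not tested.

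Counts over all genes moved by more than 1.5 times in 2 comparisons over time, to 1164 (main 1813) for day 21 against day 0 with replicates 1 to 3 only and 839 (main 1336) for day 21 against day 7 without day 21 replicate 2, both in monocyte/macrophage-like cells. With p7N3, where the main count was 0, alternatives gave up to 36 in monocyte/macrophage-like, 112 in stromal-like and 14 in endothelial-like cells. Day 0 depth limits rare genes in monocyte/macrophage-like sums, where Thbs2 had 2 UMIs in all.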
